A study of Mus musculus with 8 samples.

Results

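LG/J and MRL/MpJ are inbred mouse strains that both carry the label Healer, and LG/J is one of the strains from which MRL/MpJ was bred. They were compared over all 67 target mRNAs of a bead-based expression assay, each also beside C57BL6/J, which is labelled Non-healer. The members were every assay replicate filed under either strain: 8 for LG/J and 9 for MRL/MpJ in the first panel (17 of 76 in the series), and 9 for each in the second panel (18 of 78). LG/J and MRL/MpJ are 2 of the 8 samples of the series, 1 sample per strain.

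The study asked which genes accompany the healing of joint cartilage across strains. All mice had a full-thickness defect made in the articular cartilage of the knee at 8 weeks of age, and the joints were harvested 16 weeks later, fixed in formalin and embedded in paraffin. For every strain, 25 sections of 5 µm from 3 to 4 mice were used. The dissected area held synovium and capsule beside meniscus, articular cartilage, the growth plate and the bone under the cartilage, all in 1 homogenate, so that fewer cells of a type and less RNA per cell cannot be told apart. The mRNAs were read as branched DNA signals on coded beads, directly from tissue homogenate. C57BL6/J gave 9 assay replicates per panel. Which mouse an assay replicate came from is not given for the replicates. The methods speak of biological and technical replicates, so that some assay replicates repeat a mouse and the p-values over them are too small.

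Articular cartilage is made by chondrocytes, which lay down type II collagen and the proteoglycan aggrecan under the control of the transcription factor Sox9. Adult mammalian cartilage repairs poorly, and LG/J and MRL/MpJ are known as exceptions that close ear holes and refill small cartilage defects. Below the cartilage lies bone, made by osteoblasts under Runx2, and the growth plate joins both programmes through hypertrophic chondrocytes, which express type X collagen, Indian hedgehog and the collagenase Mmp13. The 67 mRNAs cover these tissues, the proteases that break down matrix, the TGF-beta, BMP and Wnt pathways, DNA repair, cell cycle and cell death, autophagy, inflammation and hormones of fat tissue.

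The values compared are the deposited normalized ones on the log2 scale, where 0 is the level expected from the reference genes over all 8 strains of a panel. A difference of 1 is therefore a 2-fold difference. An mRNA is called different where the limma fit over all 8 strains gave a Benjamini-Hochberg adjusted p under 0.05 over the 67 mRNAs. It is called alike where the 95% confidence interval of the difference lay within 1.5-fold either way.

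Assay replicates of a strain came in runs of neighbours, and the replicates within a run resembled each other. Signals 1 to 3, 4 to 6 and 7 to 9 formed the runs, and where LG/J had 8 signals the first run was taken to hold 2. This was chosen from how alike the signals were, so the LG/J correlation in the first panel partly reflects the choice. Within a run, the deviations of the mRNAs from the strain mean correlated with a median r of 0.84 in LG/J and 0.90 in MRL/MpJ in the first panel, and of 0.54 and 0.53 in the second. Between runs the medians lay between -0.51 and -0.31, but deviations from a strain mean are bound to oppose each other between runs. Repeat measures of single mice, 3 each, are part of the study's description, and with 3 to 4 mice per strain the number and length of the runs match it, but no label or header ties a run to a mouse. If each run is 1 mouse, the run means are the values per mouse and the better unit, and the tests over assay replicates count repeats of a mouse as independent. Calls between strains were therefore also made over the means of the runs, 3 values per strain, an alternative chosen after the data were seen.

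Over assay replicates, the reference genes themselves differed between the strains. *Gapdh*, a glycolytic enzyme, gave signals from 8610 to 12147 in LG/J (median 9711) and from 10100 to 23725 in MRL/MpJ (median 15177) in the first panel, with 4617 to 10326 in C57BL6/J (median 5504). Over the 5 reference readings of both panels, MRL/MpJ was 1.48 to 1.91 times LG/J, with adjusted p from 0.0158 to 0.0211 (two-sided exact permutation tests over assay replicates, 5 comparisons). The readings of the second panel missed 0.05 without signal number 6 (adjusted p = 0.0533 for both, exact permutation). Over run means, 3 against 3, the adjusted p was 0.3 for all 5 (exact permutation), in a design whose smallest unadjusted p is 0.1. The excess lay in the second and the third MRL/MpJ run: their mean *Gapdh* signals were 23119 and 14699 in the first panel, whereas the first run, at 10217, lay between the LG/J run means of 9405, 9009 and 11899. Without normalization the median difference of LG/J minus MRL/MpJ over all 67 mRNAs was -0.51, with the deposited values it was -0.01, and as a ratio to the reference genes it was 0.21.

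**Figure D1:**
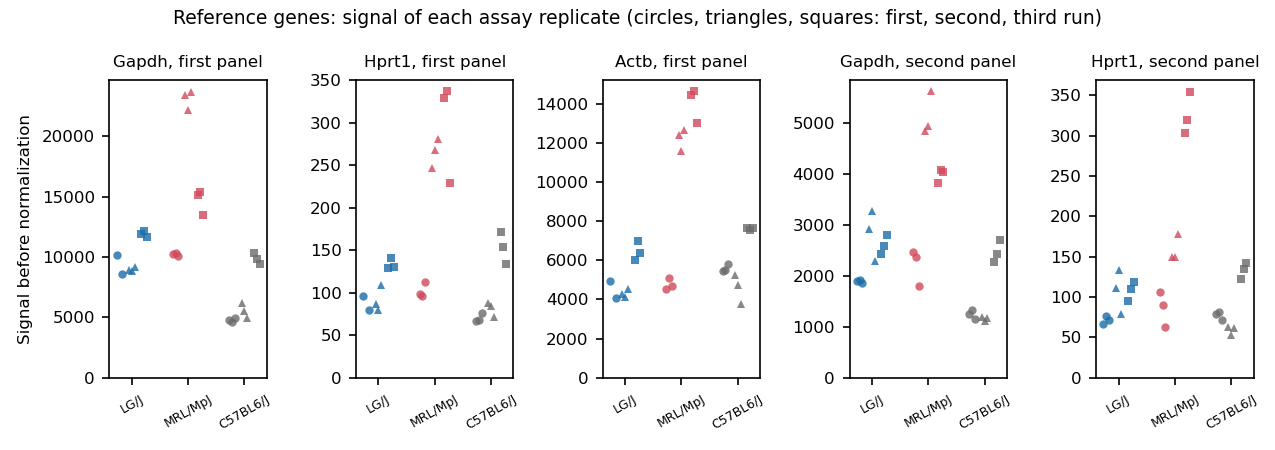
Signals before normalization of the reference genes (vertical axis, linear, from 0) in every assay replicate of LG/J, MRL/MpJ and C57BL6/J, by panel; circles, triangles and squares are the first, the second and the third run of neighbouring signals. The second and the third run of MRL/MpJ lie above LG/J in the first panel, with a mean *Gapdh* signal of 23119 and 14699, and the first run, at 10217, does not.

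LG/J and MRL/MpJ differed in 15 of the 67 mRNAs, 22.4% of those tested. Of these, 8 were higher in LG/J (11.9%), led by *Col2a1*, *Bglap1* and *Mia1* of cartilage and bone, and 7 were higher in MRL/MpJ (10.4%), led by *Bcl3*, *Atg7* and *Adipoq*. The assay replicates of the strains did not overlap at all in 3 mRNAs, *Col2a1*, *Bglap1* and *Atg7* (4.48%), and their run means did not overlap in 5, the same 3 with *Mia1* and *Trp53* (7.46%). Over run means, 2 mRNAs stayed called, *Atg7* and *Bglap1* (2.99%). With any 1 run of LG/J, MRL/MpJ or C57BL6/J left out, 4 of the 15 were called in all 9 fits: *Bglap1*, *Mia1*, *Bcl3* and *Atg7*. Leaving out a C57BL6/J run changes only the spread and not the difference of LG/J and MRL/MpJ. All 9 fits still took assay replicates as units. Without the third LG/J run alone, 7 mRNAs were called, 6 of them among the 15 (*Bglap1*, *Mia1*, *Bcl3*, *Atg7*, *Cebpb* and *Adamts5*). The other 9 then missed the threshold: *Col2a1*, *Mmp13*, *Ihh*, *Wisp1*, *Runx2*, *Lef1*, *Adipoq*, *Igf1* and *Trp53*, with differences of 0.74, 0.48, 0.16, 0.23, 0.24, 0.26, -0.52, -0.46 and -0.24 in this order. With 1 of the 9 signal numbers left out in all strains, *Adamts5*, *Cebpb*, *Igf1* and *Lef1* each missed the threshold in 6 of 9 fits, *Ihh* in 4, *Wisp1* in 3, *Runx2* in 2 and *Trp53* in 1. The direction split depended on the scale: 10 higher and 2 lower in LG/J as ratios to the reference genes, 8 and 13 with the reference genes as covariates, and 0 and 19 without normalization.

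As many as 45 mRNAs were alike within 1.5-fold (67.2%), and 33 over run means (49.3%), all of them among the 45. Those 33 were 7 of 7 TGF-beta and BMP, 4 of 5 DNA repair, 3 of 4 autophagy and 4 of 8 inflammation mRNAs. They were also 3 of 5 adipokines, 3 of 5 chondrocyte factors, 3 of 7 Wnt and 2 of 4 cell cycle mRNAs. Proteases and growth plate factors gave 2 of 6 each, bone 0 of 3 and cartilage matrix 0 of 7. Below, alike refers to assay replicates unless run means are named. *Runx2* and *Trp53* were alike and called different too, since their differences were small and their intervals narrow. Neither alike nor called were 9 mRNAs: *Acan*, *Col10a1*, *Col6a6*, *Sox9*, *Fgf18*, *Gdf5*, *Lep*, *Ccl3* and *Mmp3*, whose intervals were too wide to say either. The alike count fell to 26 as ratios to the reference genes and to 9 without normalization.

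**Figure D2:**
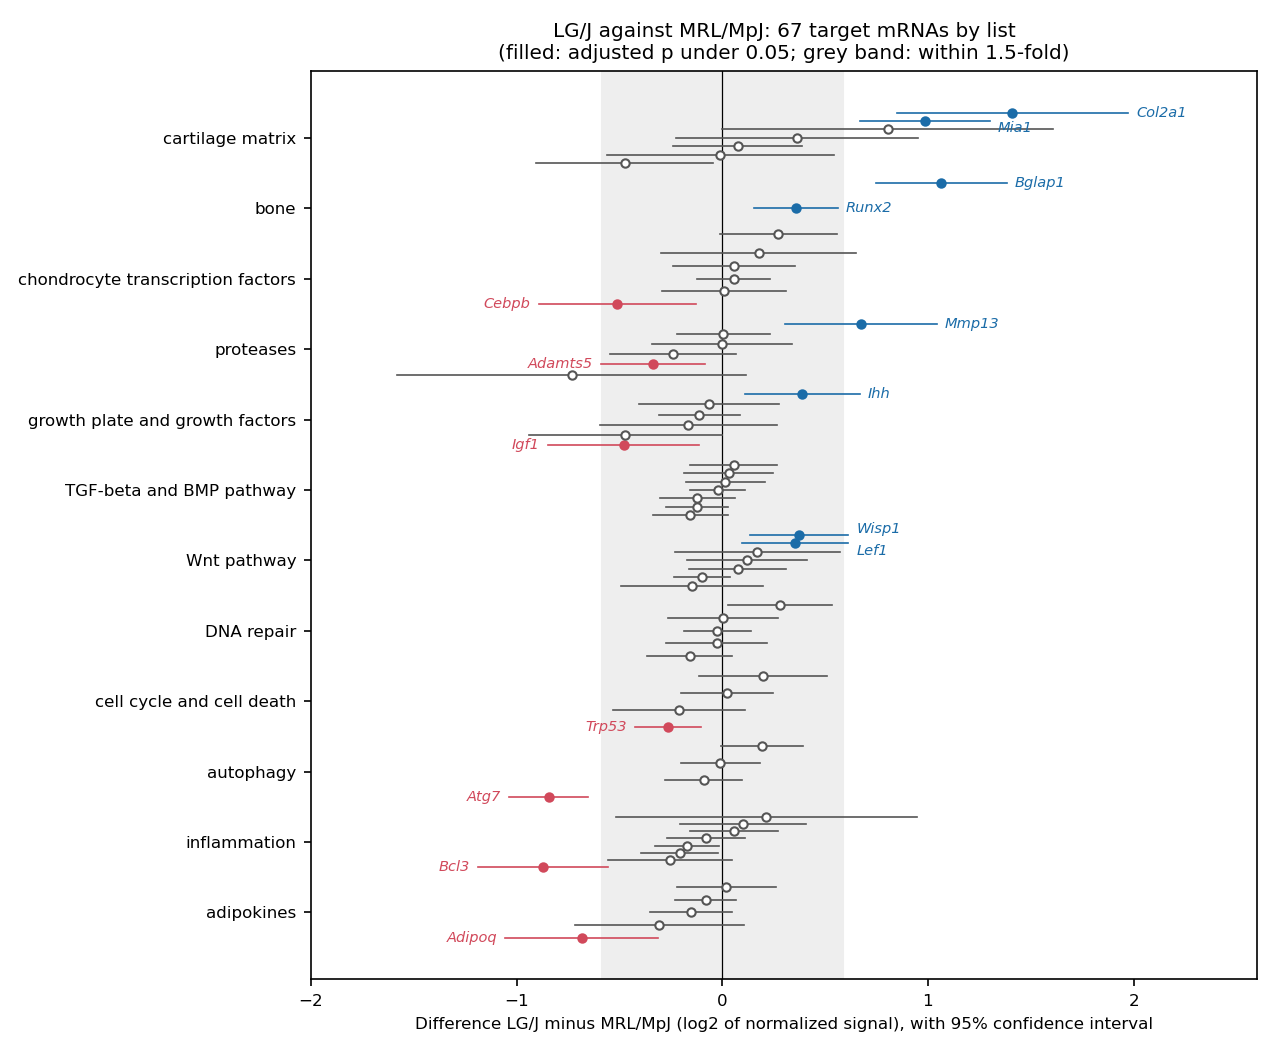
Difference of LG/J minus MRL/MpJ (horizontal axis, log2 of normalized signal) with its 95% confidence interval for each of the 67 mRNAs, grouped by list; filled points are the 15 mRNAs with adjusted p under 0.05 in limma, blue where LG/J was higher and red where MRL/MpJ was, and the grey band marks 1.5-fold. The 8 blue points lie in the lists of cartilage matrix, bone, proteases, growth plate and Wnt, and the TGF-beta and DNA repair lists have no filled point.

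The cartilage matrix list held the largest difference of all. Of 7, 2 were called, both higher in LG/J, where 22.4% of all mRNAs were called, and none was over run means. The list's median difference was 0.37 against -0.01 over all mRNAs. *Col2a1* encodes the type II collagen of hyaline cartilage. Its normalized value was 0.70 ± 0.92 (SD, n = 8) in LG/J, -0.71 ± 0.08 (n = 9) in MRL/MpJ and -0.52 ± 0.17 (n = 9) in C57BL6/J. LG/J ranged from -0.01 to 1.89 around a median of 0.09, and MRL/MpJ from -0.81 to -0.58 around -0.70, so that the lowest LG/J value lay above the highest of MRL/MpJ. The difference was 1.41 ± 0.28 (SE), a 2.66-fold higher level in LG/J (adjusted p = 5.4e-05 in limma). The third LG/J run stood far above the other two, with run means of 0.09, 0.00 and 1.81. Without it the difference was 0.74 (adjusted p = 0.0699 in limma), and over run means the adjusted p was 0.273. Before normalization the median *Col2a1* signals of the strains lay side by side, 2822 in LG/J and 2861 in MRL/MpJ, against 1462 in C57BL6/J, and the difference of the means was 0.84 (adjusted p = 0.0603 in limma).

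*Mia1*, now named *Mia*, encodes a small protein that chondrocytes secrete. Its normalized value was 0.69 ± 0.56 in LG/J (n = 8), the highest of the 8 strains, against -0.29 ± 0.29 in MRL/MpJ and -0.38 ± 0.15 in C57BL6/J (n = 9 each). The run means were 0.06, 0.47 and 1.33 in LG/J and -0.60, 0.04 and -0.32 in MRL/MpJ, which do not overlap although single replicates do. LG/J was 1.98-fold higher (difference 0.99 ± 0.16, adjusted p = 5.95e-07 in limma), and 0.60 higher without the third LG/J run (adjusted p = 0.00544 in limma). Over run means the adjusted p was 0.108, and without normalization the difference was 0.38 and not called (adjusted p = 0.241 in limma).

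*Acan*, *Comp* and *Col10a1* varied more among the runs of LG/J than between the strains. *Acan*, which encodes aggrecan, had LG/J run means of 0.52, -0.51 and 1.40, and *Comp*, a cartilage matrix glycoprotein, had 0.85, -1.01 and 0.84. *Col10a1*, the collagen of hypertrophic chondrocytes, had 1.01, -0.53 and 1.59. The second LG/J run was the lowest and the third at or near the highest for each of these genes. Their differences from MRL/MpJ were 0.37 for *Acan*, -0.01 for *Comp* and 0.80 for *Col10a1*, none of them called (adjusted p = 0.41, 0.992 and 0.16 in limma). *Sox9*, the transcription factor of cartilage, followed the same order of LG/J runs (0.10, -0.78 and 1.01), and its difference from MRL/MpJ was 0.18. *Ddr2*, a collagen receptor, was alike in the strains (0.07), and *Col6a6*, a type VI collagen chain, differed by -0.47 without a call, with LG/J run means from -0.14 to -0.07 and MRL/MpJ run means from -0.70 to 1.36 (adjusted p = 0.114 in limma). The 5 cartilage markers *Col2a1*, *Acan*, *Comp*, *Mia1* and *Sox9* were above 0 in every replicate. Their summed signal ran from 3396 to 16676.5 in LG/J (median 6078), from 4629 to 7311.5 in MRL/MpJ (median 5317) and from 2382 to 4246.5 in C57BL6/J (median 3419). The part of the amount of cartilage in these results was not tested.

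**Figure D3:**
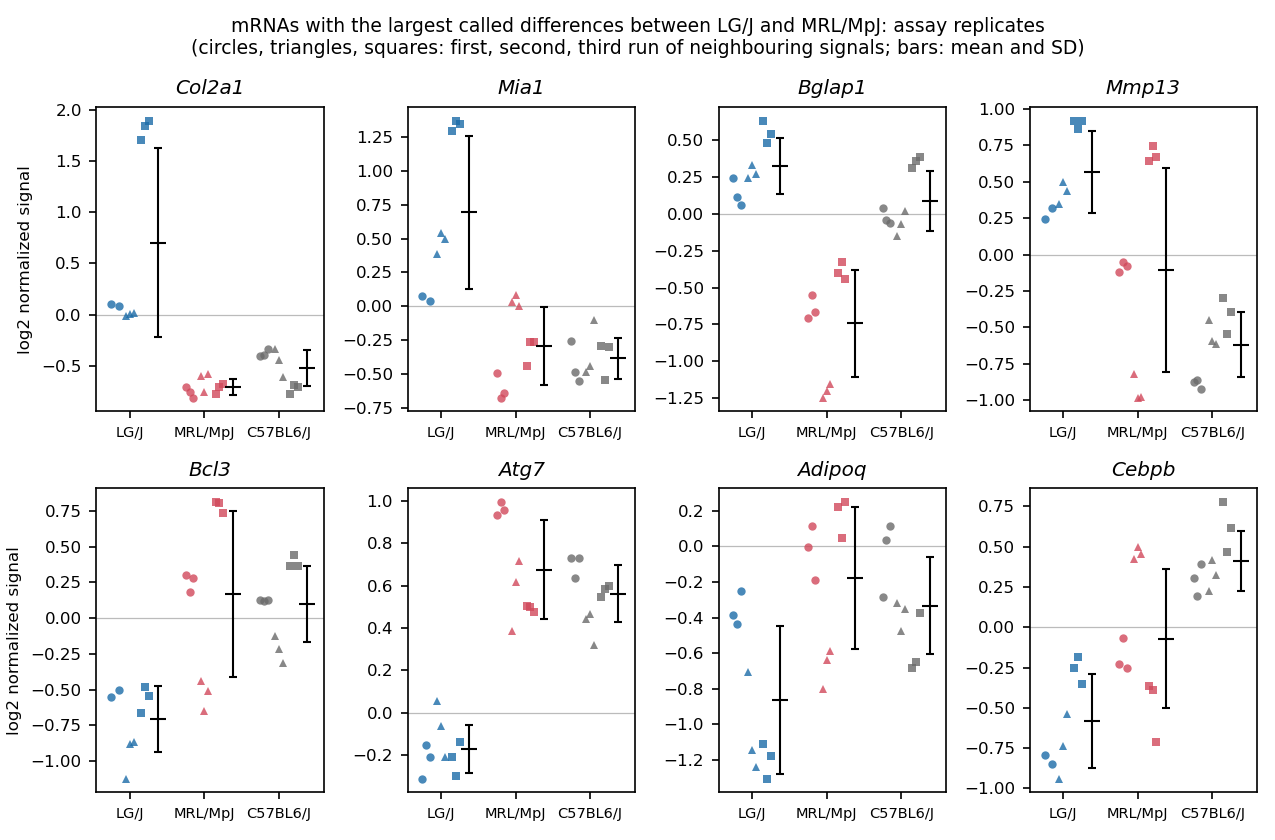
Normalized values (vertical axis, log2) of every assay replicate of LG/J, MRL/MpJ and C57BL6/J for 8 mRNAs called between LG/J and MRL/MpJ, 4 higher in LG/J (upper row) and 4 higher in MRL/MpJ (lower row); circles, triangles and squares are the first, the second and the third run, and bars are mean and SD. The third LG/J run of *Col2a1* (mean 1.81) stands apart from the other LG/J runs, whereas for *Atg7* all LG/J replicates lie below all those of MRL/MpJ.

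Of the bone genes, *Bglap1* separated the strains most. It encodes osteocalcin, the hormone and matrix protein of mature osteoblasts, and is listed by RefSeq as *Bglap*; near-identical neighbouring genes may bind the same probes. LG/J ranged from 0.06 to 0.63 (median 0.27), MRL/MpJ from -1.25 to -0.33 (median -0.66) and C57BL6/J from -0.15 to 0.38 (median 0.02), with n = 9 each. All 9 LG/J values and all 9 C57BL6/J values lay above all those of MRL/MpJ. LG/J was 2.09-fold higher than MRL/MpJ (difference 1.07 ± 0.16, adjusted p = 1.23e-07 in limma, and 0.0312 over run means). MRL/MpJ was lower than C57BL6/J by 0.83 (adjusted p = 5.81e-05 in limma, 0.182 over run means), whereas LG/J minus C57BL6/J was 0.24 and not called (adjusted p = 0.258 in limma). Before normalization the *Bglap1* signals overlapped, from 1236 to 2525.5 in LG/J and from 688 to 2662.5 in MRL/MpJ, and the difference of 0.47 was not called (adjusted p = 0.271 in limma).

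*Runx2*, the master transcription factor of osteoblasts, was higher in LG/J than in MRL/MpJ, and its mean over both strains was 0.40 ± 0.09 higher than in C57BL6/J (adjusted p = 0.000161 in limma, 0.186 over run means). LG/J alone was 0.58 higher than C57BL6/J (adjusted p = 3.2e-06 in limma, 0.0505 over run means), and MRL/MpJ minus C57BL6/J was 0.22 and not called (adjusted p = 0.136 in limma). Its normalized value was 0.40 ± 0.18 in LG/J (n = 8), 0.05 ± 0.42 in MRL/MpJ (n = 9) and -0.17 ± 0.13 in C57BL6/J (n = 9). MRL/MpJ held 1 run of 0.59 beside runs of -0.17 and -0.28, so that its range covered that of LG/J. LG/J minus MRL/MpJ was 0.36 ± 0.10 (adjusted p = 0.00679 in limma, 0.561 over run means), and -0.34 without normalization, the opposite direction. Without the third MRL/MpJ run it was 0.19 (adjusted p = 0.175 in limma), and the call was also lost with the 3 strains fitted alone (adjusted p = 0.0655). *Col1a1*, the main collagen of bone, was not called between LG/J and MRL/MpJ (0.27, adjusted p = 0.174 in limma) and was alike.

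Of 6 proteases, 2 were called, against 22.4% of all mRNAs, with *Mmp13* higher in LG/J and *Adamts5* in MRL/MpJ, and none was called over run means. *Mmp13* encodes the collagenase that cuts type II collagen. Its normalized value was 0.57 ± 0.28 in LG/J (n = 8), -0.11 ± 0.70 in MRL/MpJ (n = 9) and -0.62 ± 0.23 in C57BL6/J (n = 9). The MRL/MpJ run means of -0.08, -0.93 and 0.69 spread more widely than the LG/J means of 0.28, 0.43 and 0.90, the highest of them within the range of LG/J, and every LG/J replicate lay above every C57BL6/J replicate. LG/J was 1.6-fold higher than MRL/MpJ (0.67 ± 0.18, adjusted p = 0.00475 in limma, 0.561 over run means), a difference of -0.14 without normalization. The call was also lost with weighted assay replicates (0.19, adjusted p = 0.497 in limma) and without the second MRL/MpJ run (0.27, adjusted p = 0.268). Against C57BL6/J it was 1.18 higher in LG/J and 0.51 higher in MRL/MpJ (adjusted p = 2.32e-07 and 0.039 in limma, and 0.0348 and 0.882 over run means). *Adamts5*, the main aggrecanase of mouse cartilage, was 0.34 ± 0.13 lower in LG/J (adjusted p = 0.0485 in limma, 0.681 over run means). As a ratio to the reference genes the difference was -0.14, and it was -0.09 without the first MRL/MpJ run, whose mean of 0.70 stood above the others (-0.29 and 0.24). *Mmp3*, the protease stromelysin, differed by -0.73 ± 0.43 without a call (adjusted p = 0.249 in limma). It was 1.47 higher in MRL/MpJ than in C57BL6/J (adjusted p = 0.00736 in limma, 0.59 over run means), and LG/J minus C57BL6/J was 0.74 (adjusted p = 0.172 in limma). *Adamts4* differed by -0.24, and *Mmp1a* and *Mmp9* differed by less than 0.01 and were alike.

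Osteoblast genes and *Mmp13* are known targets of Runx2, which binds a short DNA word, so the stretch before the start of each gene called higher in LG/J was searched for ACCACA and its reverse complement TGTGGT. RefSeq promoters (GRCm38.p6) were at hand for 6 of the 8 genes, 3 of which held the word within 250 bases before the start: *Bglap1*, *Mmp13* and *Runx2* itself. It was present in 5 of the 42 other target genes with a promoter, and in 15.9% of all 27025 genes of the table. Since the word was chosen for known Runx2 targets that are among these hits, the counts are no test of Runx2. A part of Runx2 was not tested. The calls of *Mmp13* and *Runx2* were lost over run means (adjusted p = 0.561 in limma for both), and their differences turned to -0.14 and -0.34 without normalization. A match is a description of the letters alone, and binding was not measured here. The 3 stretches, on the strand of the gene and with the word in capitals, are shown because they are those of the 8 genes in which the word was found; *Ihh*, *Lef1* and *Mia1* had a promoter in the table without it. They lie at chr3:88384561-88384630 on the minus strand for *Bglap1*, chr9:7272364-7272433 on the plus strand for *Mmp13* and chr17:44814670-44814739 on the minus strand for *Runx2*, where the word begins 132, 118 and 80 bases before the start.
Bglap1: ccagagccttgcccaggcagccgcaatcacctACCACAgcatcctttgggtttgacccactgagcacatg
Mmp13: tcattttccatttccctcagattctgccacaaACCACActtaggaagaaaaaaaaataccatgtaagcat
Runx2: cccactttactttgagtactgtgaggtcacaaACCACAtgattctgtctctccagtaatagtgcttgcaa

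Of 6 growth plate and growth factor mRNAs, 1 was called higher in each strain, against 22.4% called over all mRNAs, and none was called over run means. *Ihh*, Indian hedgehog, which paces the growth plate, was 0.39 ± 0.14 higher in LG/J (adjusted p = 0.0413 in limma, 0.561 over run means). Its LG/J run means were -0.08, 0.57 and 0.94, and without the third run the difference was 0.16 (adjusted p = 0.544 in limma). Without normalization no difference was left (0.003, adjusted p = 0.989), and the call was also lost with the 3 strains fitted alone (adjusted p = 0.0588) and with the signal number as a block (0.0523). *Ihh* signals were low, from 8 to 28 in LG/J and from 8 to 23 in MRL/MpJ. *Igf1*, a growth factor that supports matrix synthesis, was 0.48 ± 0.18 lower in LG/J (adjusted p = 0.0494 in limma, 0.681 over run means). It was -0.13 as a ratio to the reference genes, -0.03 with weighted assay replicates and -0.02 without the first MRL/MpJ run, whose mean was 1.02 beside -0.23 and -0.47. *Gdf5*, a joint-forming BMP family factor, and *Fgf18*, which drives cartilage growth, differed by -0.47 and -0.16 and were neither called nor alike. *Pthlh* and *Vegfa* were alike in the strains.

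Of 7 Wnt pathway mRNAs, 2 were called, against 22.4% of all mRNAs, both higher in LG/J: *Wisp1*, now *Ccn4*, a secreted Wnt target (0.37 ± 0.12, adjusted p = 0.018 in limma), and *Lef1*, a transcription factor of the pathway (0.36 ± 0.13, adjusted p = 0.0413 in limma). Over run means both had an adjusted p of 0.561, and without normalization both differences turned to -0.04 and -0.05. Without the second MRL/MpJ run, whose means were -0.68 for *Wisp1* and -0.78 for *Lef1*, the differences were 0.17 and 0.10. The call of *Lef1* was also lost with any 1 of signal numbers 2, 4, 5, 6, 8 and 9 left out in all strains, where the difference lay between 0.28 and 0.37. The other 5, *Axin2*, *Csnk2a1*, *Fzd2*, *Wnt3a* and *Wnt16*, were alike, and over run means only *Axin2*, *Csnk2a1* and *Fzd2* were.

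*Atg7* gave the clearest difference between the strains. It encodes the enzyme that starts the conjugation steps of autophagosome formation. LG/J ranged from -0.31 to 0.05 (median -0.21), MRL/MpJ from 0.39 to 0.99 (median 0.62) and C57BL6/J from 0.32 to 0.73 (median 0.59), with n = 9 each. LG/J lay below both other strains in every replicate, while MRL/MpJ and C57BL6/J overlapped, and MRL/MpJ had the highest mean of the 8 strains. LG/J was 1.79-fold lower than MRL/MpJ (difference -0.84 ± 0.10, adjusted p = 2.54e-11 in limma) and lower than C57BL6/J by 0.73 (adjusted p = 2.64e-09 in limma). Over run means these adjusted p were 0.00219 and 0.00644. As run means of ratios to the reference genes, LG/J minus MRL/MpJ was -0.62 and not called (adjusted p = 0.732 in limma). The signals before normalization did not overlap either, from 49 to 87 in LG/J and from 114 to 218 in MRL/MpJ. MRL/MpJ minus C57BL6/J was 0.11 (adjusted p = 0.465 in limma). The other autophagy genes, *Ulk1*, *Becn1* and *Map1lc3a*, were alike in LG/J and MRL/MpJ.

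*Bcl3*, which encodes a nuclear partner of NF-kappaB, was the 1 called of 8 mRNAs in the inflammation list, against 22.4% of all mRNAs, and none of the 8 was called over run means. Its normalized value was -0.70 ± 0.23 in LG/J (n = 8), the lowest of the 8 strains, against 0.17 ± 0.58 in MRL/MpJ and 0.10 ± 0.27 in C57BL6/J (n = 9 each). LG/J run means were -0.53, -0.96 and -0.56, and those of MRL/MpJ 0.25, -0.53 and 0.78. The second MRL/MpJ run thus overlapped LG/J, and the other 2 lay above it. LG/J was 1.83-fold lower (difference -0.87 ± 0.16, adjusted p = 1.07e-05 in limma, 0.116 over run means). Of the 15 mRNAs called between the strains, *Bcl3* and *Atg7* kept call and direction as ratios to the reference genes, with these genes as covariates and without normalization, and with each signal number left out in turn. All of these fits were over assay replicates. As run means of ratios neither was called (adjusted p = 0.362 for *Bcl3* and 0.732 for *Atg7* in limma). *Nfkb1* and *Stat3*, transcription factors of inflammatory signalling, differed by -0.17 and -0.21 without a call (adjusted p = 0.114 for both in limma). Both were alike, as were *Il4*, *Il6*, *Cxcl12* and *Stat6*, and *Ccl3* had too wide an interval, from -0.52 to 0.95.

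*Adipoq*, the hormone adiponectin of fat cells, was 1.61-fold lower in LG/J (difference -0.68 ± 0.19, adjusted p = 0.00475 in limma, 0.467 over run means). Its signals were low, 12 to 21 in LG/J, 21 to 59.5 in MRL/MpJ and 13 to 26.5 in C57BL6/J, and as a ratio to the reference genes the difference was -0.44 (adjusted p = 0.232 in limma). Leptin (*Lep*) and resistin (*Retn*), the other fat markers, differed by -0.31 and -0.15 without a call. The summed signal of these 3 markers, all above 0, was 26 to 47 in LG/J, 36 to 85.5 in MRL/MpJ and 28 to 53.5 in C57BL6/J. The part of the amount of fat in the result was not tested. *Retn*, *Apln* and *Nampt* were alike.

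Of 5 transcription factors of chondrocytes, 1 was called, *Cebpb*, against 22.4% of all mRNAs, and none was over run means. *Cebpb* was lowest of the 8 strains in LG/J (-0.58 ± 0.29, n = 8) and highest in C57BL6/J (0.41 ± 0.19, n = 9), with MRL/MpJ at -0.07 ± 0.43 (n = 9). LG/J minus MRL/MpJ was -0.51 ± 0.19 (adjusted p = 0.0483 in limma, 0.561 over run means), and -0.25 without the second MRL/MpJ run (adjusted p = 0.399 in limma). LG/J minus C57BL6/J was -0.99 (adjusted p = 1.55e-05 in limma, 0.042 over run means) and MRL/MpJ minus C57BL6/J -0.48 (adjusted p = 0.0645 in limma). *Epas1*, *Sox5* and *Tfap2a* were alike. In the cell cycle list, *Trp53*, which encodes the tumour suppressor p53, was 0.26 ± 0.08 lower in LG/J (adjusted p = 0.0136 in limma, 0.561 over run means). As a ratio to the reference genes the difference was -0.03 and not called (adjusted p = 0.923 in limma). Its normalized run means were -0.27, -0.19 and -0.29 in LG/J and 0.13, -0.04 and -0.05 in MRL/MpJ. The cell cycle inhibitors *Cdkn1a* and *Cdkn2a* differed by -0.21 and 0.20, and were alike and not called.

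How LG/J and MRL/MpJ together stood to C57BL6/J was tested as the mean of both against C57BL6/J. This contrast does not show whether other strains lie beside LG/J and MRL/MpJ. The mean was called in 16 of 67 mRNAs (23.9%), of which 10 were alike in the strains: 8 higher and 2 lower than in C57BL6/J. Over run means 1 remained (1.49%), *Xrcc2*. The direction of the calls depended on the scale. With the deposited values 11 were higher and 5 lower than in C57BL6/J, and as ratios to the reference genes 4 and 16. With the reference genes as covariates they were 15 and 4, and without normalization 28 and 0. Neighbouring C57BL6/J replicates also resembled each other (median r within a run 0.40 in each panel). The calls of the mean therefore too rest on fewer independent values than assay replicates.

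*Xrcc2*, which encodes a protein of DNA repair, lay farthest from C57BL6/J among the alike mRNAs. LG/J ranged from 0.08 to 0.52 (median 0.40), MRL/MpJ from 0.10 to 0.71 (median 0.31) and C57BL6/J from -0.96 to -0.11 (median -0.62), with n = 9 each. MRL/MpJ and LG/J were the highest of the 8 strains and C57BL6/J the lowest, and no replicate of either overlapped with C57BL6/J. LG/J minus MRL/MpJ was -0.03, with an interval from -0.27 to 0.22. The mean of both was 1.91-fold higher than in C57BL6/J (0.94 ± 0.11, adjusted p = 1.72e-11 in limma, 0.000715 over run means). As run means of ratios to the reference genes the difference was 0.54 and not called (adjusted p = 0.622 in limma). The signals were low, 17 to 31 in LG/J, 18 to 61.5 in MRL/MpJ and 8 to 18 in C57BL6/J.

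*Pcna*, the sliding clamp of DNA replication, was higher than in C57BL6/J by 0.72 in LG/J and by 0.44 in MRL/MpJ (adjusted p = 2.71e-06 and 0.00769 in limma, and 0.0348 and 0.556 over run means). Its normalized value was 0.43 ± 0.23 in LG/J, 0.15 ± 0.21 in MRL/MpJ and -0.29 ± 0.10 in C57BL6/J (n = 9 each). LG/J minus MRL/MpJ was 0.28, with an interval from 0.03 to 0.53 and no call (adjusted p = 0.114 in limma), but without the third LG/J run it was 0.41 and called (adjusted p = 0.0424 in limma). The mean of both had an adjusted p of 0.0716 over run means. The other DNA repair genes, *Fancc*, *Polq* and *Xpa*, were alike in the strains and not called against C57BL6/J. All 5 of this list and all 7 of the TGF-beta and BMP list were alike, against 67.2% of all mRNAs. Over run means these were 4 of 5, without *Pcna*, and 7 of 7, against 49.3%.

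*Axin2*, a feedback inhibitor and standard readout of Wnt signalling, was 0.62 higher in LG/J and 0.54 higher in MRL/MpJ than in C57BL6/J (adjusted p = 1.55e-05 and 0.000339 in limma, and 0.042 and 0.182 over run means). LG/J minus MRL/MpJ was 0.07, although the MRL/MpJ run means ran from -0.29 to 0.52 and those of LG/J from 0.07 to 0.17. All 6 of these run means lay above those of C57BL6/J, from -0.68 to -0.36. The mean of both was 0.58 ± 0.10 higher (adjusted p = 6.95e-06 in limma, 0.062 over run means). C57BL6/J had the lowest *Axin2* mean of the 8 strains (-0.49), followed by SM/J (-0.17). The lines bred from LG/J and SM/J lay from 0.01 to 0.07, beside LG/J at 0.13 and MRL/MpJ at 0.05.

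*Mmp9*, a gelatinase of osteoclasts and leukocytes, was lower than in C57BL6/J by 0.50 in each strain (adjusted p = 0.000223 in LG/J and 0.000418 in MRL/MpJ in limma). Its normalized values ran from 0.15 to 0.61 in LG/J, from -0.14 to 0.65 in MRL/MpJ and from 0.60 to 1.13 in C57BL6/J, the highest of the 8 strains. The run means of both strains lay below those of C57BL6/J, and the mean of both had an adjusted p of 0.104 over run means. Without normalization the difference of the mean was -0.17 and not called (adjusted p = 0.724 in limma). As run means of ratios to the reference genes it was -0.90 and not called (adjusted p = 0.0931 in limma).

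*Cxcl12*, a chemokine that retains stem and blood-forming cells, was 0.39 higher in LG/J and 0.33 higher in MRL/MpJ than in C57BL6/J (adjusted p = 0.00235 and 0.0149 in limma, and 0.172 and 0.59 over run means). The mean of both had an adjusted p of 0.186 over run means. The third C57BL6/J run, at 0.06, lay apart from the others (-0.37 and -0.42) and within the range of MRL/MpJ. *Ulk1*, the kinase that initiates autophagy, was 0.39 higher in LG/J than in C57BL6/J (adjusted p = 0.00119 in limma, 0.146 over run means), and the mean of both had an adjusted p of 0.282 over run means. MRL/MpJ minus C57BL6/J was 0.20 (adjusted p = 0.202 in limma), with MRL/MpJ run means on both sides of C57BL6/J, from -0.32 to 0.55. Without the first MRL/MpJ run the mean of both was 0.19 and not called (adjusted p = 0.074 in limma), and for *Cxcl12* it was 0.28 and not called without the second C57BL6/J run (adjusted p = 0.053 in limma). *Map1lc3a*, a coat protein of autophagosomes, differed from C57BL6/J by -0.29 in LG/J and -0.20 in MRL/MpJ, and *Chrdl1*, a secreted BMP antagonist, by 0.27 and 0.21. C57BL6/J had the lowest *Chrdl1* mean of the 8 strains, and LG/J and MRL/MpJ ranked 6th and 7th from the highest. For *Ulk1*, *Map1lc3a* and *Chrdl1*, LG/J on its own was called (adjusted p = 0.00119, 0.0103 and 0.043 in limma) and MRL/MpJ on its own was not (0.202, 0.148 and 0.184); the difference between the strains was not called in any of the 3, and over run means LG/J was called in none of them. For *Axin2*, *Cxcl12*, *Runx2* and *Ulk1* the call of the mean was lost as a ratio to the reference genes, with differences of 0.40, 0.20, 0.08 and 0.09.

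**Figure D4:**
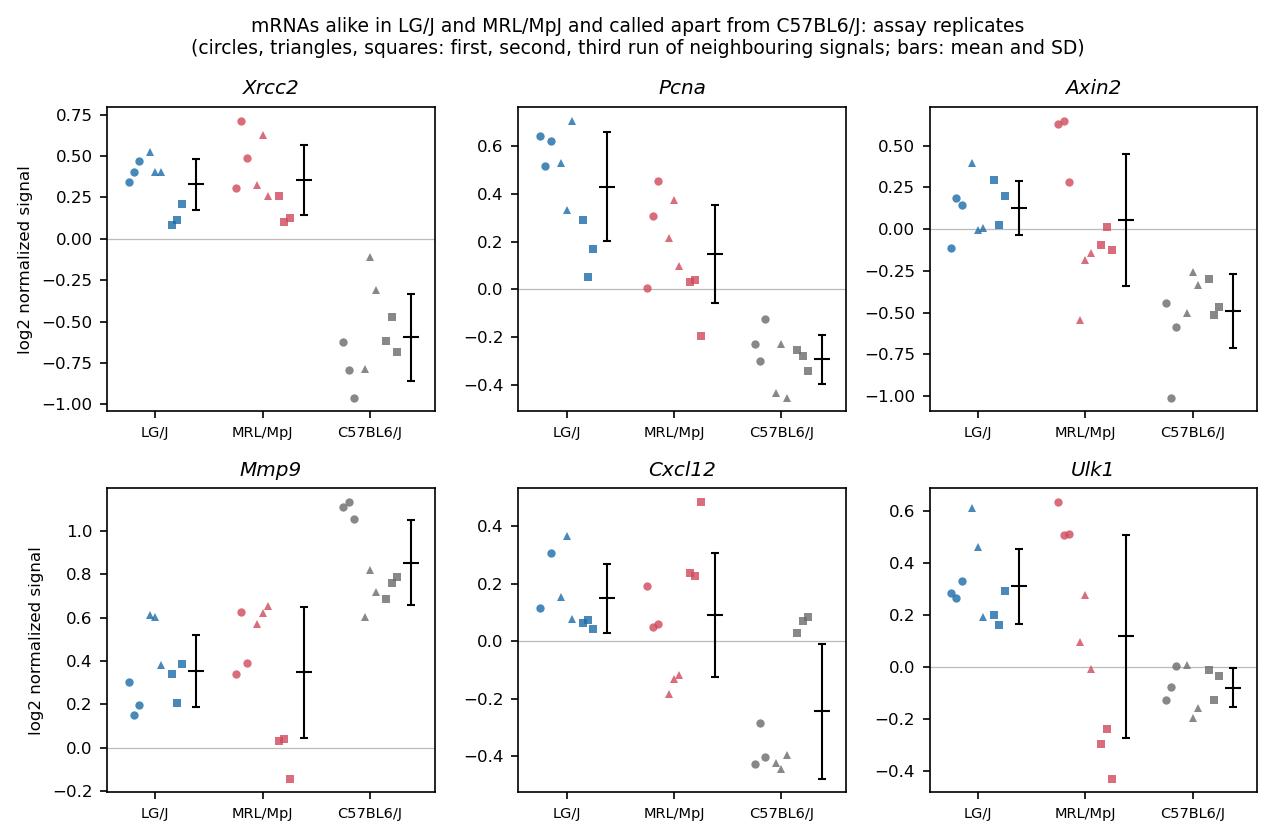
Normalized values (vertical axis, log2) of every assay replicate of LG/J, MRL/MpJ and C57BL6/J for 6 mRNAs that were alike in LG/J and MRL/MpJ and called in the mean of both against C57BL6/J; circles, triangles and squares are the first, the second and the third run, and bars are mean and SD. For *Xrcc2* all replicates of both strains lie above C57BL6/J, whereas the MRL/MpJ runs of *Ulk1* spread from -0.32 to 0.55.

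Set against C57BL6/J one at a time, LG/J was called in 20 mRNAs (29.9%), 13 higher and 7 lower, and MRL/MpJ in 10 (14.9%), 8 higher and 2 lower. These splits depended on the scale. As ratios to the reference genes, 7 were higher and 8 lower in LG/J, and 4 and 17 in MRL/MpJ. With the reference genes as covariates they were 15 and 4, and 13 and 4. Without normalization they were 6 and 2, and 49 and 0. The comparisons share the C57BL6/J replicates. Over run means they were called in 7 (10.4%) and 1 (1.49%). Among the 8 mRNAs called higher in LG/J than in MRL/MpJ, the C57BL6/J mean was nearer to MRL/MpJ in 7, all but *Bglap1*. Among the 7 called higher in MRL/MpJ it was nearer to MRL/MpJ in 5, with *Cebpb* nearer to MRL/MpJ but above both, and to LG/J in *Adamts5* and *Trp53*. Over all 67 mRNAs it was nearer to MRL/MpJ in 46 (68.7%).

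The distance between strains was taken as the root mean square of the differences of strain means over the 67 mRNAs. It was 0.39 for LG/J and MRL/MpJ, the 12th smallest of 28 pairs, which ran from 0.28 to 0.56 with a median of 0.40. LG/J was nearer to SM/J (0.35) and to LGXSM-6 (0.36), a line bred from LG/J and SM/J, than to MRL/MpJ. MRL/MpJ was nearer to LGXSM-33 (0.31), C57BL6/J (0.34) and SM/J (0.38) than to LG/J. LG/J and C57BL6/J were 0.44 apart. The number of mRNAs called, 15, lay below the median of 19 over the 28 pairs, and over run means it was 2, at the median of 2. The order depended on the scale, since with the reference genes as covariates the pair was the 3rd smallest of 28 and as ratios to the reference genes the 7th. Without normalization the median difference over all mRNAs was 0.77 for MRL/MpJ minus C57BL6/J and -0.51 for LG/J minus MRL/MpJ. That MRL/MpJ was nearer to C57BL6/J than to LG/J is therefore stated for the deposited values alone.

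**Figure D5:**
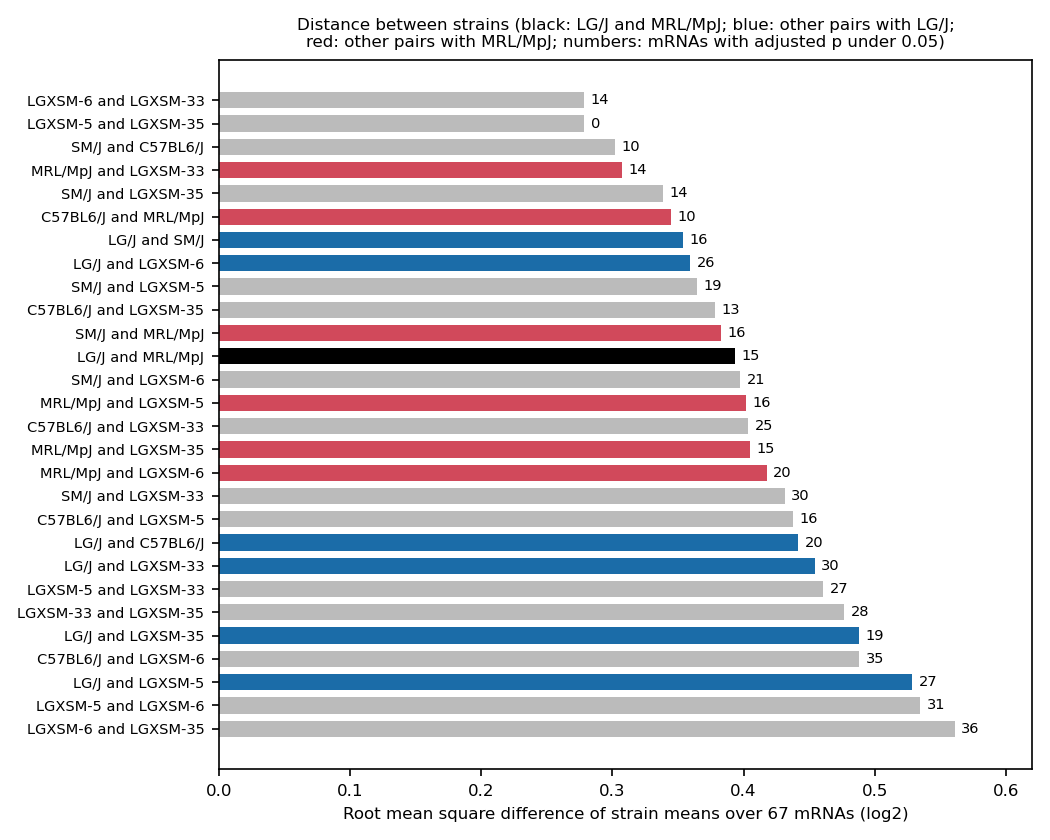
Root mean square difference of strain means over 67 mRNAs (horizontal axis, log2 of normalized signal, from 0) for each of the 28 pairs of strains, with the number of mRNAs called in limma beside each bar. On this deposited scale LG/J and MRL/MpJ (black, 0.39, 15 mRNAs called) lie in the middle of the pairs, and MRL/MpJ and C57BL6/J (0.34) are nearer to each other.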

How the data were processed

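Signals of a QuantiGene Plex assay were deposited for each assay replicate of 8 strains in 2 panels, before and after normalization. The deposited values are log10 signals. Per the methods, a background was subtracted, and the authors regressed each target on *Gapdh*, *Hprt1* and *Actb* (the second panel holds *Gapdh* and *Hprt1*) and kept the residuals. Residuals recomputed here correlated with the deposited ones at a median r of 1.00 over mRNAs (lowest 0.85). Whether the deposited signals precede the background step is not given in the sources used here. The deposited strain averages and fold changes were not used.

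All values were turned to log2. Comparisons were fitted with limma 3.58.1 in R 4.3.3 (lmFit, contrasts and eBayes, per panel, all 8 strains), with Benjamini-Hochberg adjustment over 67 mRNAs and a threshold of 0.05. Reference genes were tested with exact permutation tests (Python 3.11.15, numpy 2.4.6). The fits were tested on simulated data. Alternatives changed the scaling, the samples fitted, a filter on low signals, weights, the replicate number as a block, single signal numbers left out and the test. Run means, runs as a random block and runs left out were added after the data were seen. Signals among the targets of LG/J and MRL/MpJ ran from 3 to 28860, with 15.6% of LG/J and 11.1% of MRL/MpJ signals under 10, where the steps between readings are coarse. No mRNA was filtered out.

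The members and lists were chosen with earlier results of these data known. Named in full were the called mRNAs of LG/J against MRL/MpJ, up to 10 per direction, and the 8 alike mRNAs whose mean lay farthest from C57BL6/J among those called. One mRNA of this rule is not reported here. All probes (70 of 70 accessions) matched a RefSeq gene, 4 under another symbol.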

Additional observations from a re-analysis of the deposited data

Results flagged for a closer look

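Among the named mRNAs, 66 groups of assay replicates of LG/J, MRL/MpJ and C57BL6/J were examined for a single replicate far from the rest. Of the 66 groups 2 were flagged, a smaller share than the 1 in 20 that chance alone gives for independent replicates. In LG/J the lowest *Lef1* replicate was -0.40 on the normalized log2 scale, and its gap to the next took up 0.53 of the range of the 9 replicates. In C57BL6/J the lowest *Axin2* replicate was -1.01, with a gap of 0.56 of the range. Without that signal number in all strains, the *Axin2* mean of LG/J and MRL/MpJ was 0.47 above C57BL6/J (adjusted p = 0.000225 in limma). Without the *Lef1* one, LG/J minus MRL/MpJ was 0.46 (adjusted p = 0.00822 in limma).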

How the results depend on the processing

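The 15 mRNAs called between LG/J and MRL/MpJ became 9 with Tukey's test, 5 with Tukey's test adjusted over mRNAs and 8 with exact permutation tests. Over run means they were 2, with the short run placed last 3, as run means of ratios to the reference genes 0 (limma, none at an adjusted p under 0.05), and with runs as a random block 7. LG/J against C57BL6/J, 20 mRNAs, gave 8 without normalization, 33 with weighted replicates, 31 with permutation tests, and over runs 7, 8, 0 and 10 in the same order. MRL/MpJ against C57BL6/J, 10 mRNAs, gave 21 as ratios, 49 without normalization, 17 with reference genes as covariates, 18 weighted, 5 with adjusted Tukey's tests, 17 unadjusted, and over runs 1, 1, 0 and 2. The mean of both against C57BL6/J, 16 mRNAs, gave 28 without normalization, 25 weighted, 28 unadjusted, and over runs 1, 2, 0 and 5. The 45 alike mRNAs became 26 as ratios, 9 without normalization, 8 as run means of ratios, 27 with runs as a random block and 11 at 1.2-fold (58 at 2-fold). The distance of 0.39 was 0.64 without normalization and 1.14 in units of the SD within strains, the 12th of 28 in both.

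With 1 signal number or 1 run left out at a time, the counts ranged from 7 to 17 for LG/J against MRL/MpJ, from 6 to 19 for MRL/MpJ against C57BL6/J, from 16 to 25 for LG/J against C57BL6/J and from 12 to 23 for the mean. The lowest, 7, came without the third LG/J run, and without signal number 4 the count was 9. For the references of the second panel, LG/J minus MRL/MpJ ranged from -0.64 to -0.48 for *Gapdh* and from -0.94 to -0.70 for *Hprt1*, and their adjusted p passed 0.05 (0.0533 for both without signal number 6, 0.0528 for *Hprt1* without 7). Over run means the differences of the 5 reference readings were -0.60 for *Gapdh*, -0.96 for *Hprt1* and -0.90 for *Actb* in the first panel and -0.57 and -0.81 for *Gapdh* and *Hprt1* in the second, none under 0.05 in a design that could not reach it. Without normalization 4 differences turned: *Mmp13* -0.14, *Wisp1* -0.038, *Runx2* -0.34 and *Lef1* -0.048. The cause of these changes was not tested. Signal numbers were not taken to pair LG/J and MRL/MpJ: same-numbered deviations of LG/J and MRL/MpJ correlated between -0.05 and 0.42 in the first panel and between -0.13 and 0.30 in the second, 1 signal of 8 and 1 of 9 matching best with its own number. For MRL/MpJ and C57BL6/J they correlated between 0.10 and 0.51 in the first panel, all 9 above 0.1, and between -0.32 and 0.40 in the second, and for LG/J and C57BL6/J between -0.54 and 0.32 and between -0.56 and 0.53. With the number as a replicate block, 13 mRNAs were called between LG/J and MRL/MpJ, 20 and 10 in either against C57BL6/J, and 15 in the mean. The block ended the calls of *Ihh* (adjusted p = 0.0523 in limma) and *Igf1* (0.054). Run means and the runs left out were chosen after the data were seen.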
